A study of Homo sapiens with 11 samples.

Results

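The ligands of NKG2D, an activating receptor of natural killer (NK) cells, were followed in PC-3 cells, a line derived from human prostate cancer, after transfection of small RNA duplexes. The members were all probes that the scanner output names MICA, MICB, ULBP1, ULBP2 or ULBP3. This rule found 9 probes for 5 genes among the 41000 probes of the array, which carry 30484 distinct gene names. MICA, MICB and ULBP2 passed the filter on dim probes with all of their 7 probes, and the single probes of ULBP1 and ULBP3 did not. These genes were chosen with their difference to mock already known, so their values are given as a description without a test.

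The data came from 11 one-color Agilent arrays in 3 sets, each array holding 150 ng of RNA mixed from 4 transfections and taken at 24 hours. In set 1, mock was sample 1, dsEcad640 was sample 2, and the miR-302a duplex was sample 3, beside a first miR-372 array as sample 4. Set 2 held miR-520f (sample 6), miR-373 (sample 7) and a mock array (sample 8), and set 3 held mock arrays 9 and 11, miR-372 (sample 10) and miR-520c (sample 12). Mock cells had the transfection reagent but no RNA duplex, and all groups were the one cell line in serum-containing medium. The duplex concentration for these arrays and whether mock arrays 9 and 11 came from separate RNA mixes are not given in the sources used here, so the spread between arrays may be technical. The number of arrays limits the precision, since most duplexes had 1 array, and in such bulk RNA fewer cells with a transcript and less RNA per cell cannot be told apart.

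MICA and MICB are transmembrane proteins distantly related to MHC class I, and the ULBP proteins are shorter relatives that are mostly held in the membrane by a lipid anchor. Tumor, stressed and virus-infected cells can display them, and binding to NKG2D activates NK cells and costimulates some T cells. Their display is known to be controlled at transcription, by microRNAs that act on their messages, and by shedding from the surface.

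The duplexes are shown first, because 4 of the miRNAs share one seed and miR-520f does not carry it at the same place. The guide strands below were taken from RefSeq (GRCh38.p14), written 5′ to 3′, with the seed (bases 2 to 8) in capitals.
hsa-miR-302a-3p: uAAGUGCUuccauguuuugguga
hsa-miR-372-3p: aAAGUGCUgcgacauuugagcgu
hsa-miR-373-3p: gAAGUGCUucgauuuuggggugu
hsa-miR-520c-3p: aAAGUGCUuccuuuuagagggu
hsa-miR-520f-3p: aAGUGCUUccuuuuagaggguu

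The first 4 have the seed AAGUGCU, which pairs with AGCACTT in a message. In miR-520f the same 7 letters lie at bases 1 to 7, its seed is AGUGCUU, and its pairing site is AAGCACT. For reference, the miR-302a strand lies at chr4:112648186-112648208 on the minus strand. The others lie on the plus strand of chromosome 19, miR-520f at chr19:53682213-53682234, miR-520c at chr19:53707506-53707527, miR-372 at chr19:53787931-53787953 and miR-373 at chr19:53788748-53788770. The siRNA dsEcad640 was designed against the E-cadherin promoter, and its antisense strand has the same seed as the first 4, so the siRNA and these 4 miRNAs are called common-seed duplexes here (6 arrays).

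Levels are log2 processed signals after subtraction of each array's own 75th percentile, so 0 means that percentile. Differences are log2 differences of a duplex array to the mock array or mean mock array of its set. Arrays of one set share their mock arrays, so the error of a mock array is not fully shown by an SD over differences. The common-seed arrays hold different duplexes, with miR-372 counted on both of its arrays, and are not replicates of one condition. The miR-372 array of set 1 (sample 4) stood apart, where 88.1% of probes were well above background. That share was 54.4% to 72.9% elsewhere, and the median difference over all tested probes was 0.15 on that array. Some values that depend on it are given with and without it, and others, such as the ranks and correlations, include it.

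The summed level of the prostate luminal genes KLK3, KLK2 and TMPRSS2 set the arrays of set 3 apart, and most of it came from 1 probe. Their summed level was 124 and 112 times the 75th percentile on mock arrays 1 and 8, but 9.39 and 16.1 on mock arrays 9 and 11. On duplex arrays it was 93.1 to 142 in sets 1 and 2, and 23.5 with miR-372 and 41.7 with miR-520c in set 3. The brightest of these probes, KLK3 A_24_P108401, had a mean level of 5.19 over the mock arrays. TMPRSS2 was at -0.50 and the tested KLK2 probe at -4.06 there. The other KLK3 probes were well above background on 4 arrays and 1 array. The difference between sets is thus one of this sum, and is not shown for each of the 3 genes. The part of this difference between sets in the ligand values was not tested, and each ligand difference was taken within a set.

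Over the common-seed arrays MICA was the ligand with the largest mean difference. Its probe A_23_P257516, which carries the RefSeq message NM_000247 and lies at chr6:31488154-31488213 on the plus strand (hg18, the build of the probe annotation), was at 0.42, 0.41, 0.27 and 0.37 on mock arrays 1, 8, 9 and 11. It was at -1.32 with dsEcad640, -1.17 with miR-302a, -1.14 and -1.20 with miR-372 (samples 4 and 10), -0.91 with miR-373 and -1.57 with miR-520c. With miR-520f it was at -0.43. All 7 duplex arrays were below all 4 mock arrays, and the miR-520f array lay between both groups.

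The mean difference of this MICA probe over the common-seed arrays was -1.61 ± 0.19 (SD, n = 6), or 32.9% of mock. The single differences ran from -1.89 to -1.32. With miR-520f the difference was -0.85, or 55.6% of mock. Leaving out the miR-372 array of set 1 gave -1.61 ± 0.22 (SD, n = 5).

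**Figure D1:**
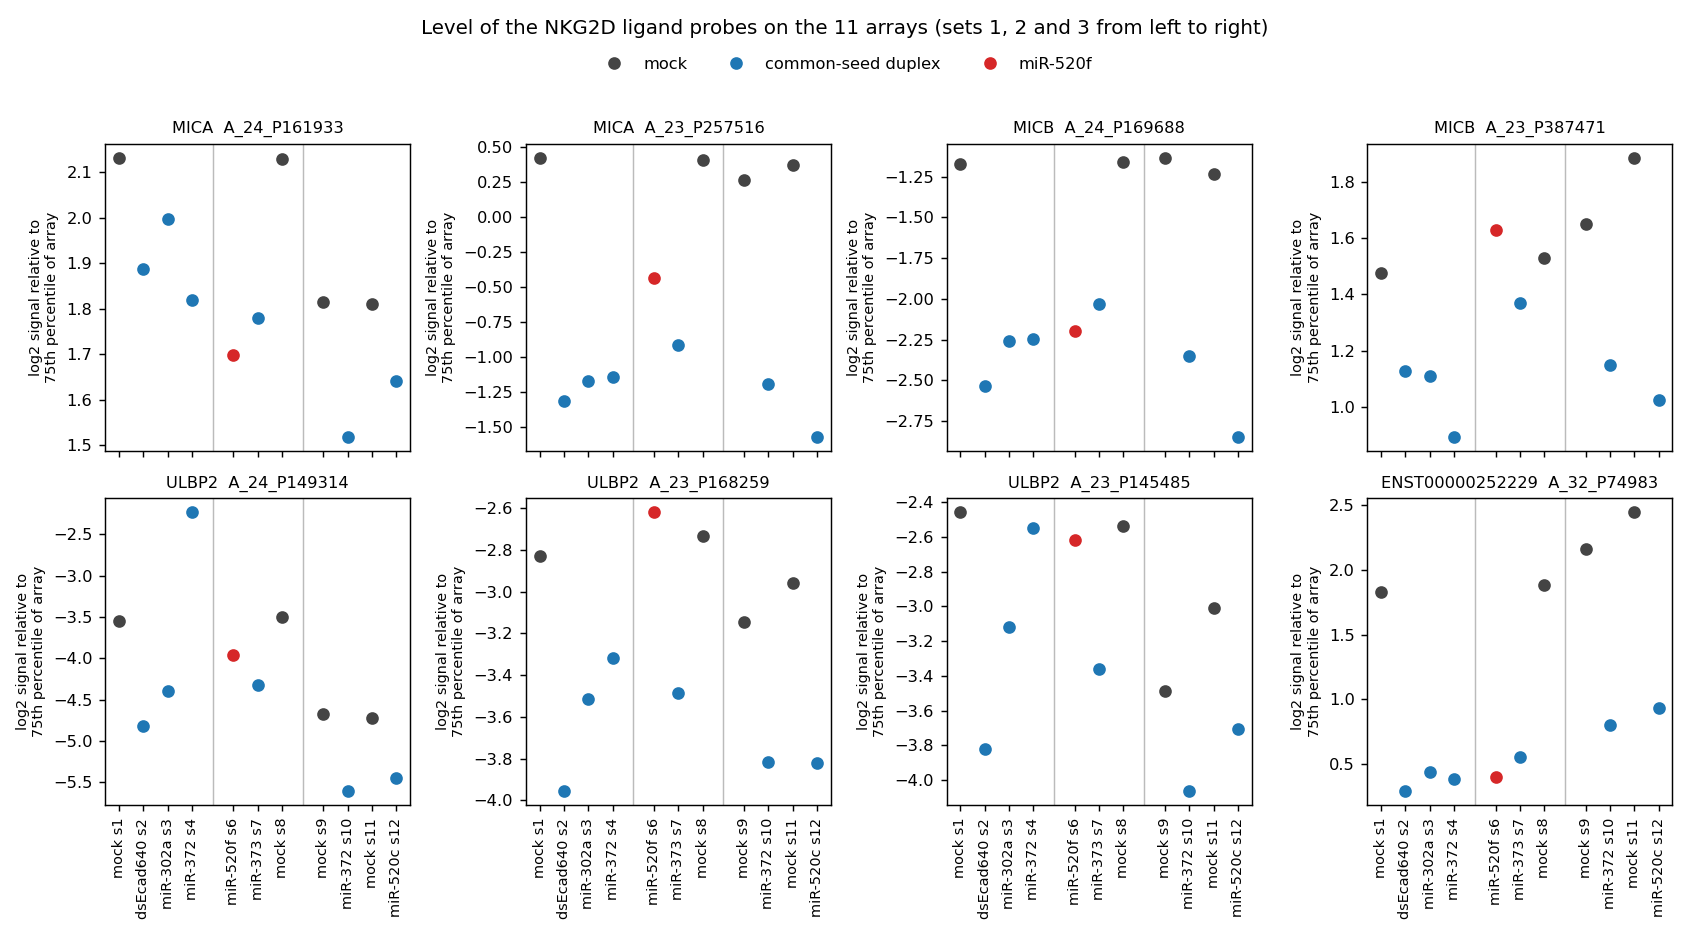
Level of each ligand probe that passed the filter, and of the probe between the MICB probes, on the 11 arrays (log2 signal with the array's 75th percentile at 0, a different axis range in each panel). Sample numbers follow the letter s, gray lines separate the sets, and each point is 1 array; for MICA A_23_P257516 the mock arrays sit between 0.27 and 0.42 and all duplex arrays are below them.

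Ordered from the lowest, with the miR-372 arrays averaged, MICA A_23_P257516 stood lowest with miR-520c, then dsEcad640, then miR-302a. Next came miR-372, then miR-373, and miR-520f was the highest. Mock arrays 9 and 11 differed by 0.11 there, and the miR-372 arrays by 0.05. The step from miR-302a to miR-372 was 0.05 and did not exceed that spread. The steps among the other common-seed neighbors were 0.15, 0.15 and 0.22. The widest step, 0.48, lay between miR-373 and miR-520f, which were on the same slide set, but with 1 array each no interval can be given for it.

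The second probe named MICA did not follow the first. A_24_P161933 was spotted 10 times on each array and carries the accession BC091497. It lies at chr6:31431929-31431988 on the minus strand, 56166 bases from the other MICA probe and 791 bases from the nearest probe named HLA-B, which is also on the minus strand. It was at 2.13, 2.13, 1.81 and 1.81 on mock arrays 1, 8, 9 and 11, and the SD over its spots ranged from 0.03 to 0.15 per array.

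The difference of A_24_P161933 was -0.25 ± 0.08 (SD, n = 6) over the common-seed arrays, and it was below mock of its set on 6 of 6. Its values ran from -0.35 with miR-373 to -0.13 with miR-302a. With miR-520f it was -0.43, the lowest of all duplexes. The levels of common-seed and mock arrays overlapped. Its neighboring duplexes differed by 0.04 to 0.08, more than mock arrays 9 and 11 (0.0047) or the miR-372 arrays (0.018) did. The SD over its spots was 0.03 to 0.15 per array, so no order of the duplexes is read from these steps. The nearby HLA-B probes A_23_P125107 and A_24_P113674 had differences of -0.38 ± 0.17 and -0.40 ± 0.12 (SD, n = 6), and -0.37 and -0.35 with miR-520f. What this probe measures in PC-3 cells was not tested, and statements on MICA here rest on A_23_P257516.

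MICB, the close relative of MICA, had 2 probes that gave different sizes. A_24_P169688 at chr6:31583164-31583223 was dim, at -1.17, -1.16, -1.13 and -1.24 on mock arrays 1, 8, 9 and 11. It was at -2.53 with dsEcad640, -2.26 with miR-302a, -2.24 and -2.35 with miR-372, -2.03 with miR-373, -2.85 with miR-520c and -2.19 with miR-520f. All 7 duplex arrays were below all mock arrays, whose own SD was 0.04 (n = 4).

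The mean difference of MICB A_24_P169688 was -1.20 ± 0.28 (SD, n = 6), or 43.4% of mock. With miR-520f it was -1.03, inside the range of the common-seed arrays (-1.66 to -0.87). The steps from miR-372 to miR-302a (0.03) and from miR-302a to miR-520f (0.05) were below the difference of mock arrays 9 and 11 (0.10). miR-520c and dsEcad640 were again the lowest, as at the MICA probe. Among the common-seed arrays these also had the largest shares of all probes lower by at least 0.5, at 14.9% and 13.8%. The part of this in the order was not tested.

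MICB A_23_P387471 at chr6:31586812-31586871, starting 3648 bases further along the plus strand, was brighter. It was at 1.48, 1.53, 1.65 and 1.89 on mock arrays 1, 8, 9 and 11, at 1.13 with dsEcad640, 1.11 with miR-302a, 0.89 and 1.15 with miR-372, 1.37 with miR-373 and 1.02 with miR-520c. With miR-520f it was at 1.63. The common-seed arrays did not overlap the mock arrays, and the miR-520f array was within the range of mock.

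Its mean difference was -0.47 ± 0.22 (SD, n = 6), or 72.2% of mock, and it was 0.10 with miR-520f. The difference of mock arrays 9 and 11 was 0.23, so the miR-520f value was within the spread of mock, and so was that of miR-373 (-0.16). Both MICB probes carry NM_005931.

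A probe named ENST00000252229 (A_32_P74983, chr6:31585698-31585757) lies between both MICB probes on the same strand, 2534 bases after the start of the first and 1114 bases before the last, and its name is among the accessions listed for a MICB probe. It is no member by the rule and was added after its values were seen. It was at 1.83, 1.89, 2.16 and 2.44 on mock arrays 1, 8, 9 and 11, and between 0.29 and 0.94 on the common-seed arrays. Its difference was -1.43 ± 0.08 (SD, n = 6), and -1.48 with miR-520f. No step between neighboring duplexes exceeded the difference of mock arrays 9 and 11 (0.28) at this probe.

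**Figure D2:**
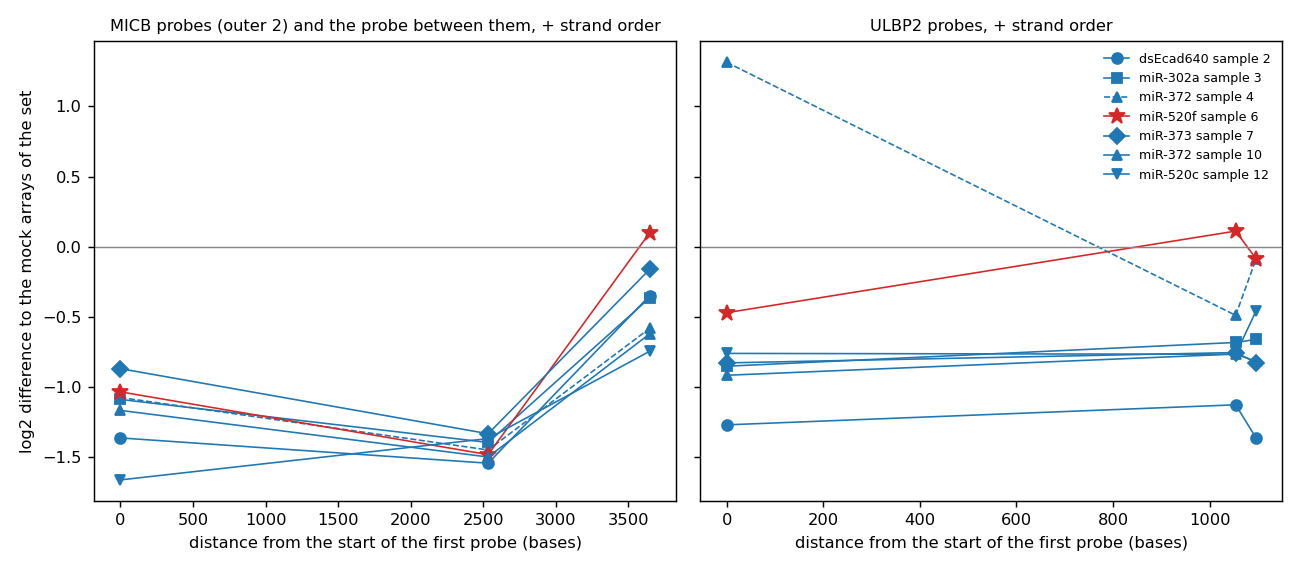
Log2 difference of each duplex array to the mock arrays of its set (y axis) for the probes at MICB (left, outer points named MICB, middle point named ENST00000252229) and ULBP2 (right), against the distance in bases from the start of the first probe. Lines join the values of 1 array; with miR-520f the last MICB probe is at 0.10 while the first is at -1.03, and the dashed line of miR-372 sample 4 stands at 1.31 at the first ULBP2 probe.

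ULBP2, one of the shorter, lipid-anchored ligands, was dim at all of its 3 probes, and all were well above background on all 11 arrays. The probe A_23_P168259 at chr6:150309365-150309424 was at -2.83, -2.73, -3.15 and -2.96 on mock arrays 1, 8, 9 and 11. It was at -3.96 with dsEcad640, -3.51 with miR-302a, -3.32 and -3.82 with miR-372, -3.49 with miR-373 and -3.82 with miR-520c. The common-seed arrays lay below all mock arrays, and the miR-520f array (-2.62) was above all of them.

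The mean difference of A_23_P168259 was -0.76 ± 0.21 (SD, n = 6), or 58.9% of mock, against 0.11 with miR-520f. Without the miR-372 array of set 1 it was -0.82 ± 0.18 (SD, n = 5). dsEcad640 was the lowest at -1.13. The steps between miR-520c, miR-373, miR-302a and miR-372 (0.01 to 0.07) were below the difference of mock arrays 9 and 11 (0.19), and the step from miR-372 to miR-520f was 0.74. On the same set, miR-373 was lower than miR-520f by a difference of -0.87.

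The probe A_23_P145485, which starts within the stretch of A_23_P168259 at chr6:150309407-150309466, had a difference of -0.70 ± 0.42 (SD, n = 6) and of -0.09 with miR-520f. Its mock levels ranged from -3.49 to -2.46, and common-seed and mock levels overlapped. Mock arrays 9 and 11 differed by 0.48 there and the miR-372 arrays by 0.73, and no step between neighboring duplexes exceeded the latter. Without the miR-372 array of set 1 the difference was -0.82 ± 0.34 (SD, n = 5).

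The third ULBP2 probe, A_24_P149314 at chr6:150308311-150308370, depended on 1 array. It was at -3.55, -3.49, -4.67 and -4.72 on mock arrays 1, 8, 9 and 11, at -4.82 with dsEcad640, -4.40 with miR-302a, -4.32 with miR-373, -5.45 with miR-520c and -5.61 with miR-372 on set 3, but at -2.23 with miR-372 on set 1. Over all common-seed arrays the difference was -0.55 ± 0.93 (SD, n = 6). Without the miR-372 array of set 1 it was -0.92 ± 0.20 (SD, n = 5), and with miR-520f it was -0.47.

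A_24_P149314 and A_23_P145485 also list the accessions NM_130900 and NM_001001788 beside that of ULBP2, so near-identical relatives may share their signal. A_23_P168259 lists neither. The members RAET1G and RAET1L of the ULBP family have no probe of their own name on the array, and RAET1E was well above background on 1 array (miR-373) and was left out by the filter.

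ULBP1, another lipid-anchored ligand, was not well above background on any of the 4 mock arrays (A_23_P156873, chr6:150331598-150331657). It was well above background on 1 of 7 duplex arrays, miR-372 of set 1, where it was at least 7.25-fold higher than the mock array of the set. This was the array with 88.1% of all probes well above background, and on the miR-372 array of set 3 ULBP1 was not. The bound takes, for the mock array, the higher of the measured signal and the lowest signal among probes well above background.

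ULBP3 (A_23_P134100, chr6:150428420-150428479, minus strand) was also above background on 0 of 4 mock arrays. It was above background on 3 of 7 duplex arrays, with 1 spot per array. With miR-372 on set 1, the array with 88.1% of all probes well above background, it was at least 1.62-fold higher than mock. With miR-372 on set 3 it was 1.76-fold above the mean bound of mock arrays 9 and 11. For dsEcad640 no fold can be given, as its level (-5.40) was below that of its mock array (-5.06). No statement on lower ULBP1 or ULBP3 levels is possible at this signal.

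**Figure D3:**
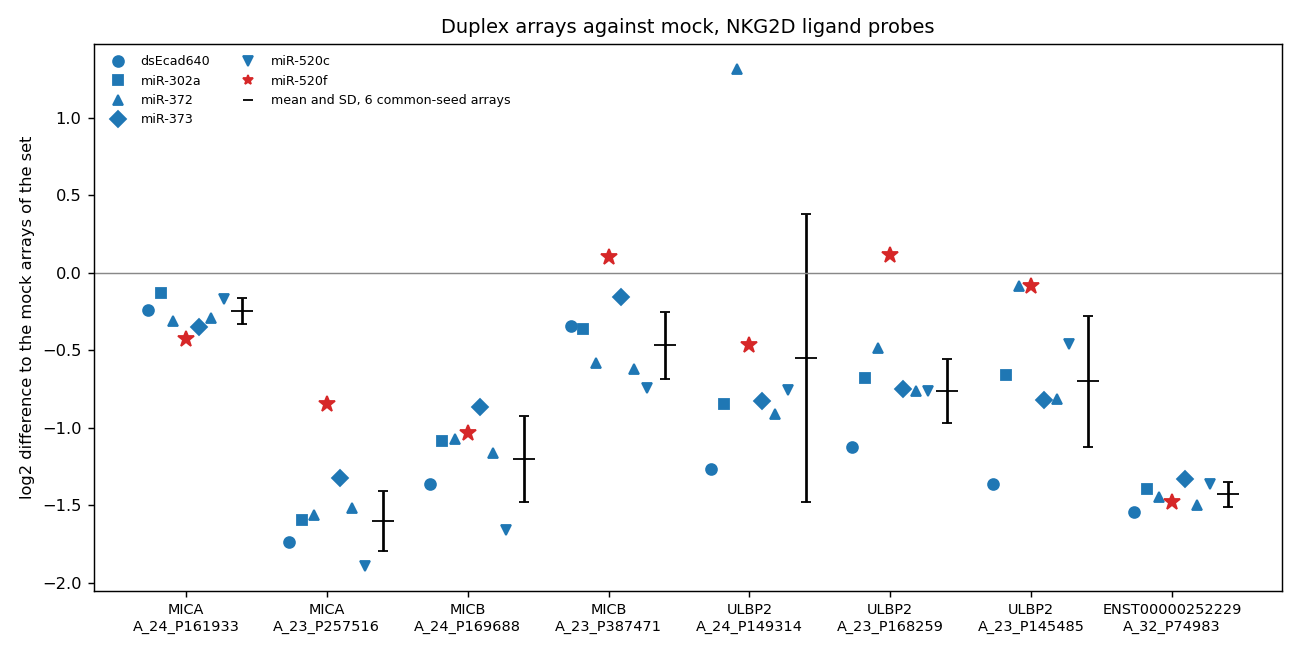
Log2 difference of each duplex array to the mock arrays of its set (y axis) for the ligand probes that passed the filter and the probe between the MICB probes. Blue symbols are the common-seed duplexes, red stars miR-520f, and bars the mean and SD of the 6 common-seed arrays; the stars of MICB A_23_P387471 and ULBP2 A_23_P168259 are at 0.10 and 0.11, above all of their blue symbols.

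Counted over the 7 ligand probes past the filter, 6 were below mock of their set on all 6 common-seed arrays, and 11.5% of all 27118 tested probes were. The exception was ULBP2 A_24_P149314, and without the miR-372 array of set 1 the count was 7 of 7 against 18.7% of all probes. The common-seed levels lay entirely below mock for 4 of 7 (3.43% of all probes), and without that array again for 4 of 7 (5.02%). The 7 include A_24_P161933, whose target was not tested. The genes were chosen on this contrast, so nothing is read from these counts.

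Taken by array, ligand probes lower than mock by at least 0.5 on the log2 scale numbered 5 of 7 with dsEcad640 (13.8% of all probes), 5 with miR-302a (8.03%), 5 with miR-373 (11.9%) and 5 with miR-520c (14.9%). With miR-372 they numbered 3 on set 1 (3.96%) and 6 on set 3 (6.20%). With miR-520f they numbered 2 (18.4%), MICA A_23_P257516 and MICB A_24_P169688. The difference of miR-520f from the common-seed duplexes was not tested, as it had 1 array.

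**Figure D4:**
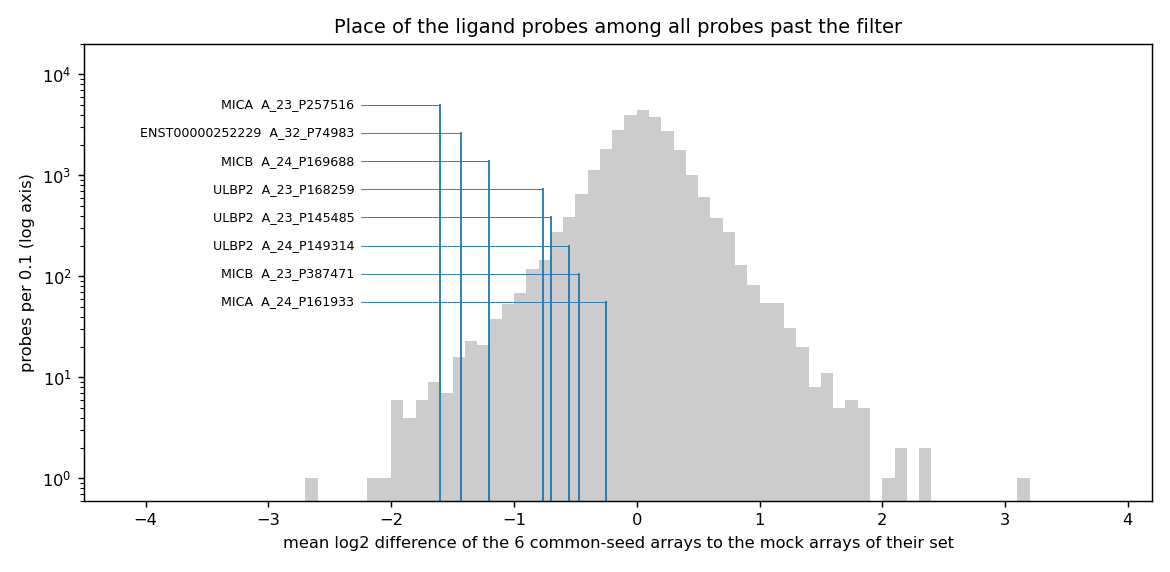
Number of tested probes per 0.1 step (y axis, log scale) against the mean log2 difference of the 6 common-seed arrays to the mock arrays of their set (x axis). Blue lines mark the ligand probes and the probe between the MICB probes, from MICA A_23_P257516 at -1.61 to MICA A_24_P161933 at -0.25.

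Among all 27118 probes ordered from the lowest mean difference, MICA A_23_P257516 was number 28 and MICB A_24_P169688 number 92. The ULBP2 probes were numbers 412, 509 and 965, MICB A_23_P387471 was number 1357 and MICA A_24_P161933 number 3774. The probes named for ligands thus spread from the extreme of the distribution to its flank. The flank end, number 3774, is A_24_P161933, whose target was not tested.

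Likeness to MICA was measured by Pearson's correlation over the 7 duplex differences, among 21402 probes well above background on all arrays. For the brighter MICA-named probe A_24_P161933 the closest were AA604115 (0.99), RPL22 (0.99), KRT18 (0.98, probe A_24_P924957), RPS3A (0.97) and AF086329 (0.96), whose mean common-seed differences were all above 0. For A_23_P257516, added because the other probe lies elsewhere, they were SEC23A (0.99), a coat protein of transport vesicles, MED8 (0.98), a Mediator subunit, ARHGEF11 (0.98), TGFBR2 (0.98), the type II TGF-beta receptor, and PHF2 (0.98). Of these, SEC23A and TGFBR2 had mean differences near or below that of MICA, at -1.61 and -1.91, and MED8 had -0.72. ARHGEF11 and PHF2 were near mock over the common-seed arrays, at -0.04 and -0.19, and above it with miR-520f, at 0.44 and 0.69. Among the ligand probes the correlation was 0.85 for MICB A_23_P387471 (number 376 in this order), 0.82 for ULBP2 A_23_P168259 (number 520) and 0.70 for MICB A_24_P169688 (number 1293). It was 0.44 and 0.10 for the ULBP2 probes A_23_P145485 and A_24_P149314, and -0.10 for the probe ENST00000252229. The points share mock arrays within a set, and a correlation over 7 arrays is given as a description only.

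Genes around the ligands were tested in 5 lists, with limma over the common-seed and mock arrays, set as a block, and Benjamini-Hochberg adjustment over all 27118 probes. Of 75 tested probes (48 genes), 6 fell and 1 rose, while 2.05% of all probes were called lower and 2.14% higher (4.19% together). The median of the 75 was -0.15, against 0.03 over all probes. These calls depended on which arrays were kept. In place of 7, the same limma test called 0 without mock array 1 (20 of 75 at an unadjusted p under 0.05), 1 each without mock arrays 8, 9 or 11 or without miR-373, 2 each without dsEcad640, miR-302a or miR-372 of set 3, and 4 without miR-520c. Without miR-372 of set 1 it called 9. Set was a block, so leaving out mock array 1, the only mock array of set 1, takes that whole set out of the comparison. Leaving out mock array 8 or miR-373 likewise takes out set 2, so these give the same fit. In the list of other NKG2D ligand and receptor genes 1 probe was tested, that of HCST, the signaling adaptor of NKG2D, which had -0.08 (adjusted p = 0.911 in limma).

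The shedding list holds the proteases that can release NKG2D ligands from the surface and their inhibitors. Of its 11 probes, 1 fell and none rose. ADAM9, a membrane protease, fell by 1.04 at one probe (SE 0.22, adjusted p = 0.0441 in limma, 0.0163 to 0.201 over the alternatives, lower on 6 of 6 arrays), and its second, dim probe had -0.78 (adjusted p = 0.284 in limma). With miR-520f these ADAM9 probes were lower still, at -2.38 and -2.73 on 1 array. The main shedding proteases, ADAM10 (-0.07, adjusted p = 0.784 in limma) and ADAM17 (-0.26, -0.12 and 0.06 at its 3 probes), were not called.

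Regulators that can control ligand transcription gave 1 call in 26 probes. RELA, the NF-kappaB subunit p65, fell by 1.00 (SE 0.11, adjusted p = 0.00588 in limma, 0.00163 to 0.0791 over the alternatives), was lower on 6 of 6 arrays, and was at -1.08 with miR-520f. NFKB1 (0.06), ATF4 (0.34 and 0.22), MYC (0.49 and 0.15), HSF1 (0.31), and HSPA1A (-0.17, -0.13 and -0.10) did not pass the test.

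Ligands of other activating NK receptors gave 1 call in 9 probes. NECTIN2, named PVRL2 on the array and a ligand of DNAM-1, rose by 0.81 at one probe (SE 0.18, adjusted p = 0.0480 in limma, 0.0209 to 0.268 over the alternatives, higher on 6 of 6 arrays), and its other probe was at 0.12 and was not called. The probes of PVR, the other DNAM-1 ligand, had 0.05 and 0.21 and were not called.

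The last list holds MHC class I genes, whose products inhibit NK cells, genes for their assembly and other inhibitory ligands. It gave 4 lower calls in 28 probes, with a median of -0.29. HLA-C fell by 0.62 at one of 4 probes (adjusted p = 0.0445), HLA-E, the ligand of NKG2A, by 0.47 at one of 3 (adjusted p = 0.0436), HLA-F by 0.33 at one of 2 (adjusted p = 0.0471), and TAPBP, which loads peptide onto class I, by 0.45 at one of 4 (adjusted p = 0.0208), all in limma. Over the alternatives, the adjusted p in limma ran from 0.00949 to 0.217 for HLA-C, 0.00696 to 0.415 for HLA-E, 0.0124 to 0.230 for HLA-F and 0.00579 to 0.164 for TAPBP. The called HLA-C probe, A_23_P95917, lies at chr6:31430871-31430936 and overlaps the HLA-B probe A_24_P113674 (chr6:31430895-31430954). The HLA-C probes A_24_P298409 (chr6:31344612-31344671) and A_23_P70539 (chr6:31347078-31347387), which lie apart from it, had -0.20 and -0.30 and were not called, and which gene A_23_P95917 measures was not tested. CD274, which encodes the inhibitory ligand PD-L1, had 0.51 and 0.10 and was not called. B2M, the shared light chain, was at -0.22 (adjusted p = 0.211 in limma). All 12 probes named HLA-B, HLA-C, HLA-E, HLA-F or HLA-G had differences below 0, also under each scaling tried. Their median was -0.32, and it was -0.37 with quantile scaling and in the authors' table and -0.30 with normexp. On all 6 arrays 11 were lower, but 9 of the 12 did not pass the test. In place of 3, limma called 11 of them in the authors' table, where 9.38% of all probes were called in either direction. It called 7 with quantile scaling (4.65% of all probes) and 7 with the filter on all 11 arrays (9.78%). It called 0 with no set block (1.43%) or no filter (0.524%). With one array left out, it called 1 without miR-520c (2.13%) and 3 without miR-372 of set 1 (7.08%). With any other array left out it called 0 (0.0885% to 2.36%). Where limma called 0, 7 to 12 of the 12 had an unadjusted p under 0.05. These genes are near-identical in part, so their probes are not independent.

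KRT8, KRT18, EPCAM and VIM, which PC-3 cells express, served as the first part of a check of the cells. All 9 of their probes were well above background on all 11 arrays. In limma 5 of 6 keratin probes rose, beside 2.14% of all probes (median of the list 0.61). Without mock array 1, and so without set 1, limma called 0 (5 of 6 at an unadjusted p under 0.05), beside 0.0885% of all probes in either direction. It called 3 without mock array 8 or 11, miR-373 or miR-372 of set 3 (1.01% to 1.48% of all probes). The VIM probes had -0.30 and -0.18 and were not called. Summed, this list ranged from 338 to 387 times the 75th percentile on mock arrays and from 361 to 460 on duplex arrays. The second part of the check, that KLK3, KLK2 and TMPRSS2 would be low or not above background, was not met. KLK3 A_24_P108401 had a mean mock level of 5.19, and TMPRSS2 was well above background on 11 arrays, at -0.50. The other KLK3 and KLK2 probes were well above background on 1 to 9 arrays. The cause was not tested. Of 15 probes for NK and lymphoid cells, 3 to 5 were above background on mock arrays, 2 to 5 on the duplex arrays other than miR-372 of set 1, and 13 on that array. Their summed level was 0.16 to 0.57 on mock arrays, 0.20 to 0.52 on those duplex arrays and 1.74 on miR-372 of set 1. PTPRC, NCAM1, CD247, KLRD1, KLRB1, GNLY and KLRK1, which encodes NKG2D itself, were above background on that array alone, and NCR1 and NCR3 on none.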

How the data were processed

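Per the file headers, the authors quantified the Cy3 intensity of each spot with Agilent Feature Extraction 10.5.1.1 and deposited its background-subtracted processed signal with a mark for signals well above background. The authors also deposited a table of normalized log2 values, used only as an alternative. From the intensities, control spots and outlier-flagged spots were removed, log2 processed signals were reduced by the 75th percentile of the array, and spots of one probe were averaged. Probes well above background on at least 6 of 11 arrays were tested (27118 of 41000). Replicate arrays held no identical values.

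Common-seed arrays (n = 6) and mock arrays (n = 4) were compared with limma 3.58.1 in R 4.3.3 (lmFit, eBayes, set as a block, Benjamini-Hochberg, threshold 0.05), and miR-520f was left out of this test. Gene names and hg18 positions are those of the scanner output. The title of the miR-520f array names another miRNA (miR-530f), while its other labels give miR-520f, which was used. In a test on simulated data for this comparison with 26919 probes, 64.5% of 200 probes changed by 1 on the log2 scale were recovered, and 87% of those changed by 2. The simulated noise was independent between arrays, and each changed probe moved equally on all common-seed arrays. These shares thus do not cover array-wide shifts, such as that of miR-372 sample 4, or differences between duplexes. The rule for named genes took all member probes, listed genes past the adjusted p, otherwise the defining gene of each list, and the 5 genes with the pattern most like MICA. Other genes in the text, such as NFKB1, ATF4, MYC, HSF1 and HSPA1A, were named after their values were seen. The members and gene lists were chosen with earlier results of these data known. Alternatives were quantile scaling, normexp background (offset 50), the authors' table, no set block, set as a random block, other filters and each array left out. Transcript and probe sequences were not used here, and some listed genes are not reported here.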

Additional observations from a re-analysis of the deposited data

Results flagged for a closer look

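ULBP2 A_24_P149314 had a difference of 1.31 on the miR-372 array of set 1 (sample 4), far from the other 5 common-seed arrays, which ran from -1.27 to -0.76. Among 16 groups of values examined this way, 1 held such an array. Chance alone gives about 1 in 20 for independent groups, but these groups share arrays, so nothing is read from this count. At the same probe the miR-372 array of set 3 was at -0.92, so the arrays of this duplex lay on opposite sides of mock, and the difference was not tested. On the first array 88.1% of all probes were well above background, and its part in this value was not tested.

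MICB A_23_P387471 was higher than mock by 0.10 with miR-520f and lower on all 6 common-seed arrays. ULBP2 A_23_P168259 was likewise 0.11 higher with miR-520f and lower on all 6. Neither difference was tested, as miR-520f had 1 array, and both values were below the difference of mock arrays 9 and 11 at the same probe (0.23 and 0.19).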

How the results depend on the processing

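For each of the 7 ligand probes, the mean common-seed difference was below 0 under all scalings, the authors' table, no set block and with each mock or miR-372 array left out. MICA A_23_P257516 ranged from -1.66 to -1.47. MICB A_24_P169688 gave -0.90 with normexp background, and ULBP2 A_23_P168259 gave -1.05 with quantile scaling, -0.50 with normexp and -0.98 in the authors' table. With normexp the other ULBP2 probes, A_24_P149314 and A_23_P145485, went from -0.55 to -0.24 and from -0.70 to -0.39. The miR-520f difference changed sign with no set block at MICB A_23_P387471 (-0.0065), ULBP2 A_24_P149314 (0.14) and ULBP2 A_23_P145485 (0.25), and with normexp at ULBP2 A_23_P168259 (-0.0265). The causes were not tested.

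Probes past the adjusted p numbered 1136, but 2007 in the authors' table, 388 with no set block, 215 with no filter, 2093 with a filter on all 11 arrays, and 24 to 1919 with single arrays left out. Of the listed probes, 7 became 14 with quantile scaling, 11 with normexp, 20 in the authors' table, 2 with no set block, 1 with no filter, 16 with the filter on all 11 arrays, and 0 to 9 with single arrays left out. The lowest of these, 24 and 0, came without mock array 1, where set 1 drops out of the comparison. Lower calls were 48.9% of the total, 44.7% to 58.6% over the alternatives. PVR A_23_P141894, not called in any setting, turned to -0.14 with quantile scaling, -0.0001 with normexp and -0.11 in the authors' table, and ranged from -0.0429 to 0.1085 with single arrays left out. No paired analysis was possible because the groups share no sample numbers; arrays of one set were tied by the set block. Signal over background limits ULBP1, ULBP3 and the dim ULBP2 probes.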
